A study of Mus musculus with 8 samples.

Results

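The 5 windows described here are the megabases of the mouse genome that held the most sites shared by the chromatin remodelers Brg1, CHD4 and Snf2h in the 3134 mammary epithelial cell line. They lie on mm9 chromosome 15 at 76000000 to 76999999, chromosome 19 at 5000000 to 5999999, chromosome 1 at 92000000 to 92999999 (the proximal window), chromosome 4 at 140000000 to 140999999 and chromosome 1 at 137000000 to 137999999 (the distal window). Members are the hotspots, intervals enriched for sequence tags, whose start lay in a window: 2772 of the 820608 hotspots in 6 lists. Hotspots that overlapped by at least 1 bp were merged into 1005 regions, of 532799 in the genome, and each region was classed by the antibodies whose hotspots it held. Chains of overlaps were merged, so the hotspots of a region need not all overlap each other. The 6 lists came from chromatin immunoprecipitation sequencing of untreated cells of this 1 line, with 2 libraries each for a monoclonal Brg1 antibody, a CHD4 antibody and an Snf2h antibody. The 2 DNA inputs were not analysed here, so copy number and mappability of the windows are not known from these data. Nothing in the labels says that libraries came from separate cultures, so each spread given here is one between these libraries and could be technical.

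Brg1 is the motor subunit of SWI/SNF complexes, which slide and evict nucleosomes at promoters and enhancers. CHD4 is the motor of NuRD, which joins remodeling to histone deacetylation, and Snf2h is the motor of the ISWI complexes, which space nucleosomes and help factors such as CTCF to hold open sites. All 3 are expressed in most cell types, and promoters and enhancers of active genes are places where they are commonly found. Annotation and sequence of mm9 were not used here, so no gene is named and no region is called a promoter or enhancer.

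The windows were chosen by a measured value, the number of regions with replicated sites of all 3 remodelers, where a replicated site is one found in both libraries of an antibody. That number was 22 on chromosome 15, 21 on chromosome 19, 20 in the proximal window of chromosome 1, 20 on chromosome 4 and 18 in the distal window of chromosome 1. The median over the 2572 megabase windows with any hotspot was 3, and 621 windows had none. The last place was a tie: 5 windows outside the set also had 18, on chromosome 11 at 94000000, chromosome 14 at 70000000, chromosome 15 at 78000000 and chromosome 2 at 157000000 and 167000000 (window starts). The next had 17. The windows stood above their neighbours, since the megabases on either side held between 4 and 14 such regions. With windows drawn 500 kb later, 4 of the 5 overlapped one that ranked in the first 5 places, ties included, and the proximal window of chromosome 1 did not.

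Each window held many regions with hotspots of all 3 remodelers. Of the 1005 merged regions, 292 held a hotspot of all 3 antibodies, which is 29.1% (95% Wilson interval 26.3% to 31.9%, counting error only), against 7.42% of regions in the whole genome and 7.38% outside the windows. A hotspot of all 6 lists, called a common region below, was found in 105 regions, or 10.4%, against 1.96% in the whole genome. The rule chose windows for such regions, so these shares describe the choice and carry no test. Brg1 with CHD4 made up another 193 regions (19.2%, against 11.4% elsewhere). Brg1 alone made up 223 (22.2%, against 37.98%) and CHD4 alone 248 (24.7%, against 34.3%). Snf2h alone made up 19 regions (1.89%, against 6.26%). Snf2h with Brg1 made up 19 (1.89%, against 1.49%) and Snf2h with CHD4 11 (1.09%, against 1.20%).

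**Figure D1:**
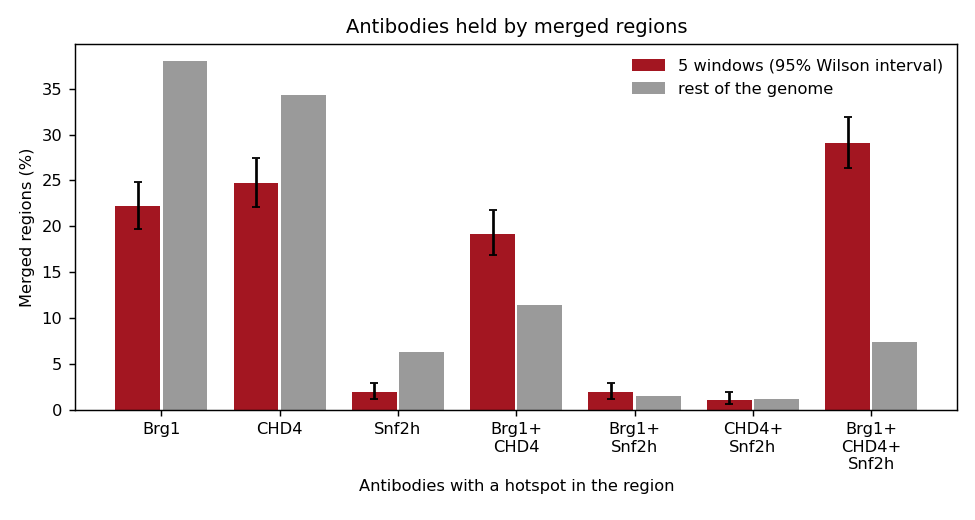
Share of merged regions (y axis, %) by the antibodies that had a hotspot in them (x axis), in the 5 windows (red, 1005 regions, error bars are 95% Wilson intervals) and in the rest of the genome (grey, 531794 regions). The class of all 3 antibodies was 29.1% in the windows and 7.38% elsewhere, and each class of 1 antibody was lower in the windows.

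The class counts leaned on the longer lists. Among the 292 regions of all 3 antibodies, the libraries present were Brg1 replicate 1 in 235 and replicate 2 in 289, CHD4 replicate 1 in 204 and replicate 2 in 291, and Snf2h replicate 1 in 136 and replicate 2 in 285. Snf2h replicate 1 was the single missing list in 77 regions. Without Snf2h replicate 2 the count of regions of all 3 was 136 (13.6% of window regions, with no genome share computed for that setting). Without Snf2h replicate 1, 182 window regions held a hotspot of every remaining list. Regions of 1 antibody rested mostly on 1 library, in the windows as elsewhere. Both libraries were present in 17 of the 223 Brg1 regions (7.62%, against 4.21% elsewhere), 1 of the 248 CHD4 regions (0.403%, against 0.434%) and 2 of the 19 Snf2h regions (10.5%, against 2.13%). The second CHD4 library alone accounted for 247 of the CHD4 regions, and its list reached down to a Z score of 2.00, as did that of Brg1 replicate 2. The lowest Z score of the other lists lay between 8.50 and 9.49.

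The windows had like shares of shared regions and differed in layout. Regions of all 3 antibodies numbered 58 of 184 on chromosome 15, 61 of 212 on chromosome 19, 49 of 162 in the proximal window of chromosome 1, 63 of 229 on chromosome 4 and 61 of 218 in the distal window of chromosome 1, so their share ran from 27.5% to 31.5%. Merged regions covered 14.5%, 17.01%, 12.9%, 16.9% and 14.8% of these windows in the same order, against a median of 10.3% over all windows. The median number of merged regions over all windows was 215, so the totals here (162 to 229) lay on both sides of it. Common regions numbered 23, 24, 20, 20 and 18. The median gap between neighbouring common regions was 28.8 kb on chromosome 15, 18.99 kb on chromosome 19, 40.2 kb in the proximal window, 29.4 kb on chromosome 4 and 24.6 kb in the distal window. Each window also had a stretch without one, of 118 to 176 kb. The fullest 100 kb held 6 common regions, on chromosome 19 between 400 and 500 kb from the window's first base.

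**Figure D2:**
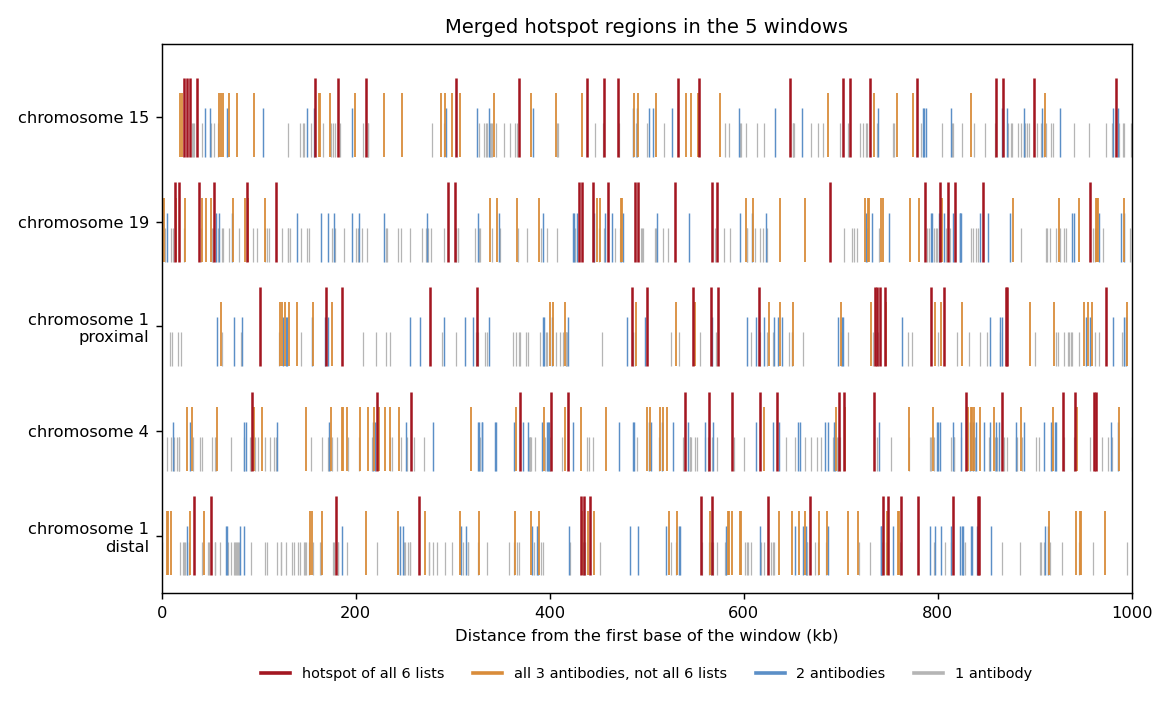
Position of the 1005 merged regions along each window (x axis, distance from its first base in kb; 1 row per window). Line height and colour give the class, from 1 antibody (grey, short) to a hotspot of all 6 lists (red, tall). The gaps between neighbouring common regions, of which there are 105, reach 176 kb.

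The excess of hotspots in the windows was smallest in the 2 lists that reach down to the lowest Z scores. Per megabase, the windows held 89.8 and 144 Brg1 hotspots (replicate 1, then replicate 2), against means of 44.8 and 101 elsewhere, ratios of 2.01 and 1.43. CHD4 hotspots numbered 54.6 and 158 per megabase, against 15.4 and 114 elsewhere, ratios of 3.55 and 1.39. Snf2h hotspots numbered 31 and 77, against 12.5 and 31.0 elsewhere, ratios of 2.47 and 2.48. The lowest ratios belonged to Brg1 replicate 2 and CHD4 replicate 2. The proximal window of chromosome 1 shows this most strongly in single lists. It was the 2nd of 2572 windows in CHD4 replicate 1, with 58 hotspots, and the 915th in CHD4 replicate 2, with 130. In Brg1 replicate 2 it was the 1033rd, with 118. The other windows ranked higher in these 2 lists. The chromosome 4 window was 6th in CHD4 replicate 2 with 182 hotspots and 27th in Brg1 replicate 2 with 166. The chromosome 15 window, the next lowest, was 343rd and 594th. The chromosome 19 window was 1st in Snf2h replicate 1 with 39 hotspots and 4th in Snf2h replicate 2 with 93.

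The share of a list that fell in the windows was 0.389% and 0.277% of the Brg1 lists, 0.686% and 0.270% of the CHD4 lists and 0.480% and 0.481% of the Snf2h lists. Means were 0.333% ± 0.0794 for Brg1, 0.478% ± 0.294 for CHD4 and 0.481% ± 0.00121 for Snf2h (SD, n = 2 each). The difference between antibody means reached 0.148 percentage points, less than the SD between CHD4 libraries. The rule counted these same hotspots, so the shares are a description with no test. Without CHD4 replicate 2 the means differed by up to 0.353 points, with CHD4 the highest, and without Brg1 replicate 2 by up to 0.0914 points.

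Hotspots in the windows were tall, and low ones were nearly absent. Height here is the authors' maximum tag density, read as a percentile within its own list because its scaling is not stated. The median window hotspot stood at percentile 84.2 and 84.3 in the Brg1 lists, 75.1 and 87.0 in the CHD4 lists and 86.4 and 84.6 in the Snf2h lists, where hotspots elsewhere had medians of 48.9 to 51.5. The lower 50% of a list contributed 1 of 449 and 31 of 720 window hotspots for Brg1, 22 of 273 and 38 of 790 for CHD4, and 0 of 155 and 0 of 385 for Snf2h. The lowest window hotspot of the Snf2h lists had a density of 14.5 in replicate 1 and 11.3 in replicate 2, in the authors' units, while those lists reached down to 2.08 and 1.89. Both Snf2h lists therefore began above their own medians in these windows.

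The upper end was filled to match. Hotspots of the tallest 10% of a list made up 34.3% and 34.03% of Brg1 hotspots in the windows, 21.6% and 40.1% of CHD4 hotspots and 32.3% and 37.1% of Snf2h hotspots. Counting only the taller 50% of each list, the windows had 3.96 and 2.73 times as many Brg1 hotspots per megabase as the rest of the genome. The ratios were 6.57 and 2.80 in the CHD4 lists and 5.04 and 4.95 in the Snf2h lists. The windows did not hold the tallest hotspots of the genome: the highest window density was 288 in Brg1 replicate 1, against 647 in the whole list, and 73.8 in CHD4 replicate 1, against 1160. By antibody the median percentiles averaged 84.3 ± 0.0611 for Brg1, 81.04 ± 8.40 for CHD4 and 85.5 ± 1.26 for Snf2h (SD, n = 2 each). The rule counted these same hotspots and height moved with that count, so the difference between antibodies is a description with no test. The largest difference between these means, 4.45 points, was 2.70 without CHD4 replicate 1 and 10.4 without CHD4 replicate 2.

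**Figure D3:**
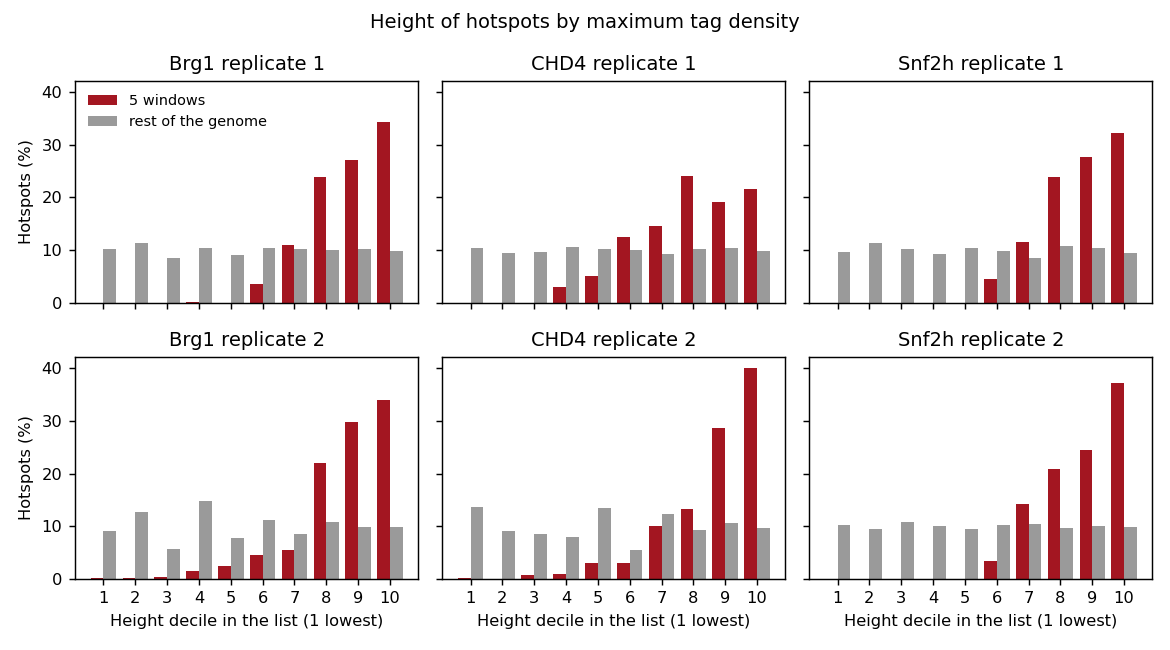
Hotspots of each list by height decile (x axis, 1 is the lowest 10% of maximum tag density in that list), as a share (y axis, %) of its hotspots in the 5 windows (red) and in the rest of the genome (grey). In all 6 lists no more than 8.06% of window hotspots came from deciles 1 to 5, and the Snf2h lists had none there.

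Hotspots that were not shared were tall as well. In regions of a single antibody, the median percentile of window hotspots was 71.1 and 74.1 in the Brg1 lists (59 and 181 hotspots), against 31.3 and 35.2 elsewhere. It was 74.5 in CHD4 replicate 2 (248 hotspots), against 35.3 elsewhere, and 74.1 in Snf2h replicate 2 (17 hotspots), against 20.3 elsewhere. CHD4 replicate 1 and Snf2h replicate 1 had only 1 and 4 such hotspots. In regions of all 3 antibodies the contrast was smaller: 88.7 and 92.2 in the Brg1 lists, against 80.9 and 88.4 elsewhere, 77.6 and 94.5 in the CHD4 lists, against 59.4 and 89.5 elsewhere, and 86.4 and 86.8 in the Snf2h lists, against 67.7 and 71.1 elsewhere.

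The authors' Z score was lower for window hotspots than for hotspots of the same height elsewhere. In the eighth decile of height, the median Z score was 13.5 and 3.72 in the Brg1 lists, against 19.6 and 6.42 elsewhere. It was 13.8 and 2.87 in the CHD4 lists, against 17.9 and 4.69, and 10.8 and 13.5 in the Snf2h lists, against 13.04 and 19.5. All 6 lists went the same way. The sources used here do not give the background behind this score, and its part in the missing low hotspots was not tested.

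The share of low hotspots moved with the number of shared regions along the whole genome. In the 5 tied windows, the lower 50% of the lists gave 1.13% to 11.5% of hotspots, and in the other 250 windows with 10 or more replicated regions of all 3 it gave 9.37% to 24.6%. It gave 48.1% to 54.3% in windows with 1 to 9, and 82.3% to 97.9% in the 621 windows with none (ranges over the 6 lists). It gave 0% to 8.06% in the 5 windows described here, the lowest range of these sets. Windows were ranked by regions that are themselves made of these hotspots, so this is a description of the lists.

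Averaged over height deciles, window hotspots were shared about as often as hotspots of like height elsewhere. Of the window hotspots, 86.9% and 74.9% in the Brg1 lists lay in a region with another antibody, against 50.2% and 40.8% elsewhere. If each window hotspot is given the share found elsewhere in its own height decile, the values become 87.7% and 74.1%. In the CHD4 lists 99.6% and 68.6% were shared in the windows, against 90.4% and 38.6% elsewhere, and 99.1% and 70.1% with height deciles matched. In the Snf2h lists 97.4% and 95.6% were shared in the windows, against 72.5% and 68.4% elsewhere, and 97.7% and 97.2% matched. The matched values lay within 1.65 points of the observed ones in every list. The lower 50% of a list held few window hotspots, and shares there varied. They were 35.5% in Brg1 replicate 2 (31 hotspots), against 21.9% elsewhere, and 100% in CHD4 replicate 1 (22 hotspots), against 81.7%. In CHD4 replicate 2 the share was 21.1% (38 hotspots), against 22.7%, and the 1 such hotspot of Brg1 replicate 1 was not shared. These shares carry no test, since the rule counted shared sites.

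Common regions allow a comparison of height with class held fixed, because each has a hotspot of all 6 lists. Heights were ranked among the 10439 common regions of the genome, and the 105 in the windows were set against the 10334 elsewhere. Snf2h stood out most: median percentiles in the windows were 71.9 and 73.6 for the Snf2h libraries, against 50.6 and 49.8 elsewhere. CHD4 medians were 66.1 and 58.05, against 50.3 and 49.99, and Brg1 medians were 63.6 and 53.1, against 50.1 and 49.9. All 6 libraries were higher in the windows, by a mean of 14.3 percentile points, and with any library left out the other 5 were all higher. The rule counted nearly the same regions and height moved with that count along the genome, so the shared direction is a description with no test. By antibody the differences were 22.5 ± 1.82 points for Snf2h, 11.96 ± 5.52 for CHD4 and 8.36 ± 7.33 for Brg1 (SD, n = 2 each), a gap between antibodies that was not tested.

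This difference was smaller among taller hotspots, at equal list lengths and without 1 of the windows. Among the taller 50% of every list it was 4.47 points, with 4 of 6 libraries higher. The differences there were 12.2 and 15.5 points for Snf2h, 3.96 and -4.71 for Brg1, and 4.58 and -4.68 for CHD4. With every list held to the length of the shortest it was 7.47 points, with 5 of 6 libraries higher. Without the proximal window of chromosome 1 it was 11.1 points, with 5 of 6 libraries higher. Common regions had a median width of 1417 bp in the windows and 1501 bp elsewhere.

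Window by window, both Snf2h libraries lay above the common regions elsewhere in all 5, both CHD4 libraries in 4 and both Brg1 libraries in 2. Median Snf2h percentiles of common regions were 73.6 and 72.2 on chromosome 15, 78.8 and 76.3 on chromosome 19, 67.5 and 73.9 in the proximal window of chromosome 1, 63.8 and 69.2 on chromosome 4, and 75.9 and 76.7 in the distal window. Brg1 medians were 58.9 and 33.7, 63.9 and 54.8, 77.03 and 82.4, 63.3 and 49.2, and 57.1 and 47.2 in that order of windows. CHD4 medians were 56.2 and 58.05, 68.7 and 59.2, 81.1 and 80.6, 45.4 and 44.7, and 59.1 and 58.6. The proximal window of chromosome 1 was thus the one where both Brg1 and both CHD4 libraries lay above both Snf2h libraries. On chromosome 4 both CHD4 libraries lay below the median of common regions elsewhere while both Snf2h libraries lay above it.

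**Figure D4:**
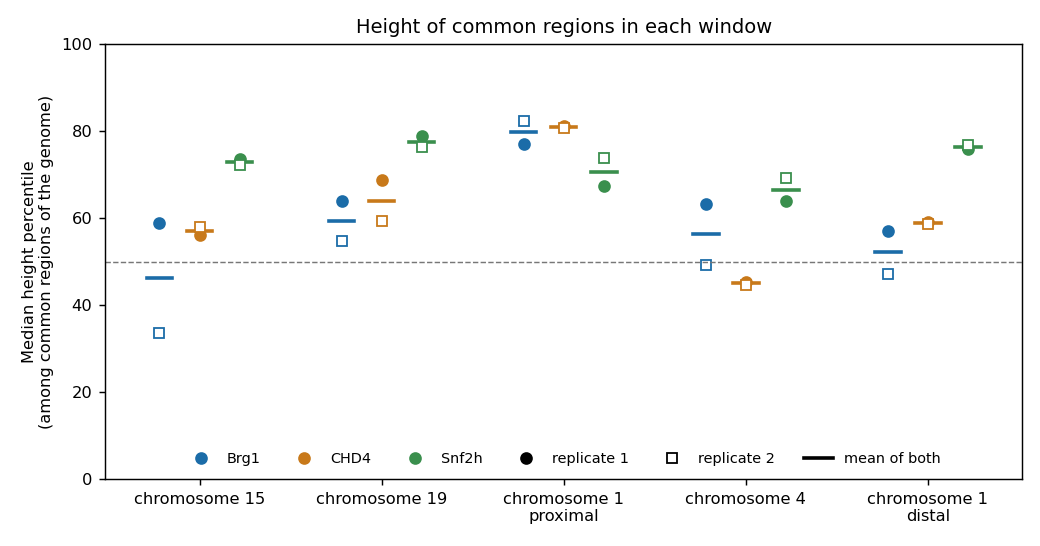
Median height percentile (y axis, among all common regions of the genome) of the common regions in each window (x axis), with 1 point per library, filled for replicate 1 and open for replicate 2, and a bar at the mean of both. The dashed line marks 50. Snf2h lies above it in all 5 windows, and Brg1 and CHD4 are highest in the proximal window of chromosome 1.

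The 5 tied windows had another order. Over their 91 common regions the median percentiles were 69.9 and 62.0 for Snf2h, 75.96 and 67.5 for CHD4, and 78.2 and 71.1 for Brg1. Snf2h medians ran from 44.3 on chromosome 14 to 78.8 on chromosome 15, whose tied window lies 1 megabase beyond the chromosome 15 window of the set. The antibody that ranked highest therefore differed between windows with about the same number of shared regions, and this difference between the 2 sets of windows was not tested.

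Region by region, the height order was split between Snf2h and Brg1. Both Snf2h percentiles exceeded both Brg1 percentiles at 48 of the 105 common regions (45.7%, against 34.3% over all common regions of the genome), and both were below them at 28 (26.7%, against 34%). Both Snf2h libraries held the highest 2 of the 6 percentiles at 30 regions (28.6%, Wilson interval 20.8% to 37.8%, against 21.6% over the genome). Both Brg1 libraries did at 13 (12.4%, interval 7.38% to 20.04%, against 16.8%) and both CHD4 libraries at 7 (6.67%, interval 3.27% to 13.1%, against 5.89%). Each interval contained the genome value. The intervals cover counting error only and neighbouring regions are not independent, so these counts are descriptions with no test. By window, Snf2h led at 8 regions on chromosome 15, 8 on chromosome 19, 2 in the proximal window, 8 on chromosome 4 and 4 in the distal window, and Brg1 led at 2, 2, 5, 3 and 1. A percentile above 50 in all 6 libraries was found at 34 common regions (32.4%, against 12.3% elsewhere), and below 50 in all 6 at 2 (1.90%, against 13.2%).

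Heights within the windows ranked alike in libraries of 1 antibody. Brg1 and CHD4 libraries also ranked alike, and Brg1 and Snf2h heights were nearly unrelated. Spearman's rho over the 105 common regions was 0.849 between the Brg1 libraries, 0.732 between the CHD4 libraries and 0.633 between the Snf2h libraries, against 0.767, 0.717 and 0.651 elsewhere. Between Brg1 and CHD4 libraries it averaged 0.649, between CHD4 and Snf2h libraries 0.354 and between Brg1 and Snf2h libraries 0.114, against 0.592, 0.388 and 0.107 elsewhere. In the windows, single pairs of Brg1 with CHD4 had values of 0.631 to 0.688, about that of the Snf2h libraries (0.633). These points share libraries and neighbouring places, so the values are descriptions. The mean rho of same-antibody pairs was above that of other pairs by 0.366, the highest of the 15 ways to pair the libraries (exact permutation p = 0.0667, one-sided, the smallest possible, so that 0.05 could not be reached).

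**Figure D5:**
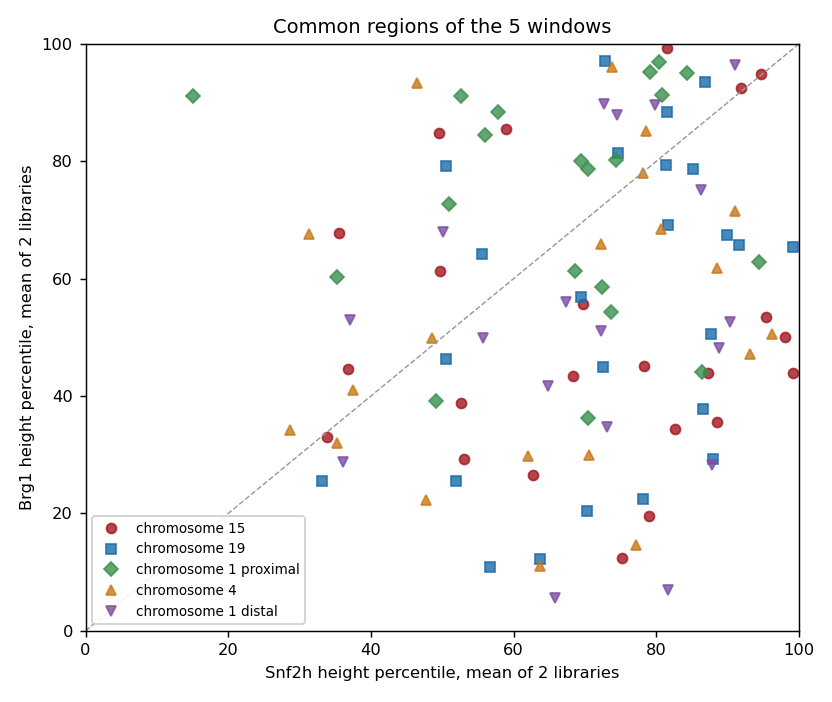
Height percentile of the 105 common regions in the Brg1 libraries (y axis, mean of 2) against the Snf2h libraries (x axis, mean of 2), ranked among all common regions of the genome. Points are coloured by window and the dashed line marks equal percentiles. Regions lie on both sides of the line, and few have low values for both antibodies.

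Single regions show what the windows hold. Each of the following was named by rule, with the maximum tag density in the authors' units for replicate 1 and then replicate 2. The tallest common region of a window is the one of highest mean percentile within the 6 lists. Another region can have higher densities in single libraries. On chromosome 15, the tallest common region lay at 76025207 to 76027699, with Brg1 densities of 175 and 76.5, CHD4 densities of 58.6 and 32.4, and Snf2h densities of 55.4 and 68.1. It ranked between percentiles 91.5 and 98.3 of common regions in all 6 libraries. The widest region of that window, 5547 bp and made of 20 hotspots, followed at 76033795 to 76039341. Its Brg1 densities, 288 and 129, were the highest of all window hotspots and stood at percentiles 99.7 and 98.98 of common regions. Snf2h there had 45.7 and 37.6, and CHD4 had 25.0 and 32.4.

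Next to it, at 76041213 to 76041965, lay the tallest region that held both Brg1 lists and no other antibody, with 55.6 and 22.1. It stood at percentiles 90.8 and 94.4 of the Brg1 lists. These regions fell within 16.8 kb, a stretch with 7 merged regions of which 3 were common. Strong Brg1 hotspots with and without the other remodelers thus lay side by side.

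On chromosome 19, the tallest common region lay at 5571826 to 5573597, with Brg1 densities of 124 and 94.1, CHD4 densities of 49.6 and 29.7, and Snf2h densities of 35.3 and 55.6. The widest region of all 5 windows lay on the same chromosome at 5843764 to 5850714, 6951 bp made of 20 hotspots. It had Brg1 densities of 111 and 37.3, CHD4 densities of 31.2 and 21.7, and Snf2h densities of 33.2 and 44.9, at percentiles of 71.1 to 87.7 of common regions. All 6 libraries were high at both places.

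In the proximal window of chromosome 1, the tallest common region lay at 92565196 to 92566657, with Brg1 densities of 205 and 87.9, CHD4 densities of 45.1 and 31.4, and Snf2h densities of 33.9 and 42.3. The widest, at 92948782 to 92951973, was 3192 bp wide and lacked a hotspot of Snf2h replicate 1. The clearest lead of CHD4 in the 5 windows was also here, at 92547088 to 92548703. CHD4 ranked at percentiles 84.5 and 84.0 there, and the other 4 libraries ranked between 57.7 and 69.9.

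On chromosome 4, the tallest common region lay at 140417900 to 140419019, with Brg1 densities of 76.4 and 34.9, CHD4 densities of 31.2 and 18.04, and Snf2h densities of 41.6 and 61.9. There Snf2h was highest by rank, at percentiles 93.1 and 89.0, against 68.5 to 79.6 for the other 4 libraries. The clearest lead of Brg1 lay at 140563509 to 140564756, with Brg1 at percentiles 66.5 and 68.7 and the others between 13.8 and 39.4. The only region with both CHD4 lists and no other antibody lay at 140813295 to 140813858, with 18.03 and 11.6. One of the 2 regions with both Snf2h lists alone, the taller, lay at 140269659 to 140270256, with 20.1 and 33.3. This window therefore held examples of a lead or sole presence of each remodeler.

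In the distal window of chromosome 1, 1 region was both the tallest and the widest, at 137263377 to 137266428, 3052 bp with 13 hotspots. It had Brg1 densities of 219 and 80.5, CHD4 densities of 41.6 and 25.5, and Snf2h densities of 41.6 and 61.9, and ranked between percentiles 89.0 and 98.8 in all 6 libraries. The clearest lead of Snf2h lay at 137050863 to 137051656, where Snf2h ranked at percentiles 81.9 and 81.5, CHD4 at 34.6 and 15.7, and Brg1 at 9.40 and 4.45. Its densities were 30.5 and 49.9 for Snf2h, 16.3 and 7.91 for CHD4, and 18.5 and 6.64 for Brg1. The opposite case, chosen after its values were seen, lay in the proximal window at 92276214 to 92277553. Brg1 ranked there at 90.3 and 91.9 and CHD4 at 89.6 and 71.6, and Snf2h ranked at 19.98 and 10.1. Both places counted as shared by all 3 remodelers, although their height orders ran in opposite directions.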

How the data were processed

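The labels' processing notes from the submitters name CASAVA 1.6 and the mm9 build. The sources used here do not give the hotspot caller, its thresholds or how inputs were used. The authors deposited 1 list per library. Per the file headers, a hotspot carries a maximum and a mean tag density (a signal, of unstated scaling), a Z score for enrichment and a p-value. The deposited p-value was not used, and depth is unknown. Groups came from sample titles.

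Hotspots were assigned to 1 Mb windows by start and merged within a window where closed intervals overlapped by at least 1 bp (Python 3.11.15, numpy 2.4.6, scipy 1.17.1, pandas 2.3.3, matplotlib 3.10.9). Densities were compared between libraries only as percentiles within a list or among common regions. Antibodies were compared by exact enumeration of the 15 pairings of 6 libraries for height order at common regions. The same enumeration, planned for list shares and height percentiles, is not given, because both rest on hotspots that the rule counted. Sign flips over libraries, planned for the height of common regions, are not given, because height moved with the count that chose the windows. The programs were tested on simulated data. Named regions were the tallest common region and the widest region of all 3 antibodies per window, the clearest lead of each antibody among common regions, and the tallest region of both lists of 1 antibody alone. The windows, tests and this rule were chosen with earlier results of these data known. Annotation and sequence of mm9 were not used here.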

Additional observations from a re-analysis of the deposited data

Results flagged for a closer look

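One difference between antibodies stood out because both libraries of each moved in opposite directions. In the chromosome 4 window, the median height percentile of common regions lay above that of common regions elsewhere by 13.2 and 19.4 points in the Snf2h libraries, and its difference was -4.84 and -5.26 points in the CHD4 libraries. The 2 antibodies differed by 21.4 points on average over 20 common regions. This difference was not tested.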

How the results depend on the processing

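Library pairing: no label ties replicate numbers to a batch, and same-numbered libraries deviated from their antibody means with correlations of -0.0106, -0.278 and 0.0819 over common regions. With the replicate number as a block (6 pairings), the exact permutation p for height order (0.366) was 0.167, the smallest possible. No p below 0.05 could be reached with or without the block, so the block cannot show whether pairing matters. List shares (0.148 points) and height percentiles (4.45 points) carry no test.

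The height difference of common regions was 4.47 points among the taller 50% of lists, 7.47 at equal list lengths and 11.1 without the proximal chromosome 1 window. Without 1 library it was 12.9 to 17.1 points. The mean stayed above 0 under all alternatives run, but not every single library did.

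Regions of all 3 antibodies made up 43.2% of window regions at equal list lengths. Without 1 library that share was 13.6% to 30.1% and their number 136 to 291. Between 104 and 182 window regions then held a hotspot of every remaining list. Genome shares were not computed for these settings, so these shares cannot be set against the genome share of the full lists.

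Which antibody had the highest share of its list in the windows was not stable. Snf2h gave way to Brg1 at equal list lengths (spread between means 0.203 points) and to CHD4 without the chromosome 15 window (0.122) or the chromosome 19 window (0.115). Without 1 library, the added alternative chosen after seeing the data, the spread was 0.0914 to 0.353 points, and CHD4 was highest without CHD4 replicate 2. For height percentiles Brg1 replaced Snf2h at equal lengths (6.11 points), with average density (2.08) and without the chromosome 19 window (3.80), and CHD4 replaced it without CHD4 replicate 1 (2.70). The spread without 1 library was 2.70 to 10.4. The cause of these moves was not tested. The excess of same-antibody pairs in height order stayed between 0.312 and 0.424 without 1 library. Unknown depth limits all counts.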
